A study of Mus musculus with 8 samples.

Results

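The genes of polyamine metabolism were compared between re-fed and starved myotubes. The set was defined by gene name: the synthesis enzymes Odc1, Srm and Sms, the catabolic enzyme Sat1, the antizymes Oaz1 and Oaz2, and the antizyme inhibitor Azin1. Members were taken where a probe set, the group of short probes that measures a transcript, is annotated to exactly 1 gene symbol. This left 10 probe sets for 6 of the 7 genes, all 6 of which were bright enough to be tested, among 8352 tested genes in all. Sms had 3 probe sets, each annotated also to its pseudogene Sms-ps, and is therefore given no value. One further Oaz1 probe set is shared with Oaz1-ps in the same way and was left aside.

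Polyamines are small positively charged molecules that bind nucleic acids and support translation and growth. Ornithine decarboxylase, the product of Odc1, makes putrescine from ornithine. Spermidine synthase (Srm) and spermine synthase (Sms) then add aminopropyl groups taken from decarboxylated S-adenosylmethionine. Spermidine/spermine N1-acetyltransferase (Sat1) marks the products for export or oxidation. Antizymes bind ornithine decarboxylase and hand it to the proteasome, and their own translation needs a ribosomal frameshift that polyamines promote. The antizyme inhibitor resembles ornithine decarboxylase but has no enzyme activity, and it binds antizyme in its place. Much of this control acts on translation and protein turnover, which an mRNA array does not measure.

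Myoblasts of the mouse line C2C12, which fuse into myotubes, were grown in 10% fetal bovine serum and differentiated in 2% horse serum. Control cultures (arrays A to D) were fed every 48 h throughout. Starved cultures (arrays E to H) received no new medium from day 4, and RNA of both groups was taken on day 8, after 4 days without feeding. No genetic change or drug was used, both groups are the same cell line, and the labels leave unsaid whether each array had its own culture, so the spread that the p-values rest on may be only technical. The myotube markers were present, with 8 of 8 tested and 1, Des, lower in starved cells. Among all tested genes 6.93% passed as lower. The trimmed mean brightness of the arrays ran from 243 to 455 intensity units, a ratio of 1.87, and the starved arrays ran from 243 to 366 against 317 to 455 for the controls. Control B stood apart: its Gapdh control probe sets had a log2 ratio of 3' to 5' signal of 1.40, against -0.23 to -0.04 on the other 7 arrays. Values below are log2 signals after an offset of 10.9 intensity units and quantile normalization, and differences are starved minus control with standard errors from limma, from n = 4 arrays per group. The p-values were adjusted by the Benjamini-Hochberg method across the 13575 tested probe sets. Signals of different probe sets are not on 1 scale, so levels are compared within a probe set only.

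The promoter regions are given of Sat1, the gene with the largest rise of the set, which passed, and of Odc1, the first enzyme, which did not. Each is the 250 bases before the RefSeq start, 5′ to 3′ on the gene's strand in build GRCm38.p6, with capitals marking GC boxes, here the letters GGGCGG or their complement. The Sat1 stretch lies at chrX:155216450-155216699 on the minus strand and that of Odc1 at chr12:17544623-17544872 on the plus strand.
Sat1: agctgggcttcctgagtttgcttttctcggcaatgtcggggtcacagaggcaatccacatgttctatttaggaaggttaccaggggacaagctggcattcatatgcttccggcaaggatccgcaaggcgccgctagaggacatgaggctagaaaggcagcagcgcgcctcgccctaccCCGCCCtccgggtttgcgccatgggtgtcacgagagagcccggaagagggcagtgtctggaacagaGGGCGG
Odc1: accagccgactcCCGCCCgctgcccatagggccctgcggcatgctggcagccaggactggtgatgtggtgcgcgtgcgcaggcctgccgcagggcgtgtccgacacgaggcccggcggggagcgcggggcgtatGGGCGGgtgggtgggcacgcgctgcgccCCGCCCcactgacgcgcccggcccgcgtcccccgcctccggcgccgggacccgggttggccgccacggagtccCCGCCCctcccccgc

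The Odc1 stretch was 80.0% G and C with 4 GC boxes, and that of Sat1 59.6% with 2. A GC box occurs in 35.7% of the 32851 RefSeq promoter windows of 300 bases (250 before to 50 after the start, either strand). It was chosen after the sequences were seen. The E-box CACGTG, the letters that Myc is known to bind, was found in neither window and in 7.15% of all windows. The C/EBP-ATF composite TGATGNAA was in neither and in 3.97% of all. Of the other members, Sms had an E-box in its stretch at chrX:157492288-157492537. The window of its other RefSeq start, with the stretch at chrX:157491369-157491618, had none, and neither had those of Oaz1 and Oaz2. A match is a description of the letters only, and the windows do not cover introns. RefSeq windows were used for 5 of the 7 genes, and Srm and Azin1 were not among them.

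Starved myotubes had more Sat1 and Srm mRNA and showed no change that passed the test in Odc1, in the antizymes or in the antizyme inhibitor. Of the 6 tested genes, Sat1 and Srm made 2 that rose, while 0 fell and 4 missed the threshold (limma, adjusted p under 0.05). Over all tested genes 11.2% passed, 4.25% higher and 6.93% lower. At an unadjusted p under 0.05, 3 of the 6 genes were higher and 0 lower, against 11.1% and 13.2% of all tested genes. The median difference of the 6 genes was 0.19 on the log2 scale, against 0.014 over all tested genes. The groups did not overlap for 3 of the 6 genes, Sat1, Srm and Odc1, and for 18.5% of all tested genes.

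Sat1, the acetyltransferase that starts polyamine breakdown and export, was the member that changed most (probe set 1420502_at). Its normalized log2 signal was 9.88, 9.89, 9.78 and 9.76 across controls A, B, C and D. It read 10.71, 10.60, 10.54 and 10.76 across starved E, F, G and H. Every starved array lay above every control array, and the gap between the groups was wider than the spread within either. The group means were 9.83 ± 0.07 and 10.65 ± 0.10 (SD, n = 4), a rise of 0.83 ± 0.08 on the log2 scale or 1.77-fold (95% interval 1.56 to 2.01; limma, adjusted p = 7.62e-05). In the deposited intensities the groups overlapped, with 889 to 1266 units in controls and 1219 to 1858 in starved arrays. In these unscaled values the Sat1 difference was 0.43 (adjusted p = 0.148), where the median of all tested probe sets was -0.33, so that Sat1 stood 0.77 above that median.

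Srm, which makes spermidine, rose beside it (probe set 1421260_a_at). Its signal was 9.51, 9.53, 9.62 and 9.46 across controls A, B, C and D. It read 10.33, 10.12, 10.21 and 10.18 across starved E, F, G and H. The groups were again fully separate. The means were 9.53 ± 0.07 and 10.21 ± 0.09 (SD, n = 4), a rise of 0.68 ± 0.08 or 1.60-fold (95% interval 1.41 to 1.82; limma, adjusted p = 0.000372). The deposited intensities ran from 699.6 to 980 units in controls and from 901 to 1246 in starved arrays. Unscaled, the Srm difference was 0.29 (adjusted p = 0.331), 0.62 above the median of all probe sets.

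Odc1, the first enzyme of the pathway, was measured by 3 probe sets, none of which passed. The brightest (1438761_a_at) read 10.83, 10.88, 10.93 and 10.92 across controls A, B, C and D. It read 10.94, 11.02, 11.21 and 11.10 across starved E, F, G and H. The starved arrays were all above the controls, but starved E by a margin of less than the spread within its group. The difference was 0.18 ± 0.08, or 1.13-fold with a 95% interval from 1.01 to 1.27 (limma, adjusted p = 0.179). The other probe sets stood at 0.19 ± 0.12 (1427364_a_at) and 0.07 ± 0.11 (1437711_x_at), with overlapping groups and adjusted p of 0.353 and 0.756 in limma's test. On 1427364_a_at control B was at 9.16, above the other controls at 8.72 to 8.76, and without it the difference was 0.30 (adjusted p = 0.0842). The direction of Odc1 rests on the scaling: unscaled it was -0.18 (adjusted p = 0.501), 0.15 above the median of all probe sets.

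**Figure D1:**
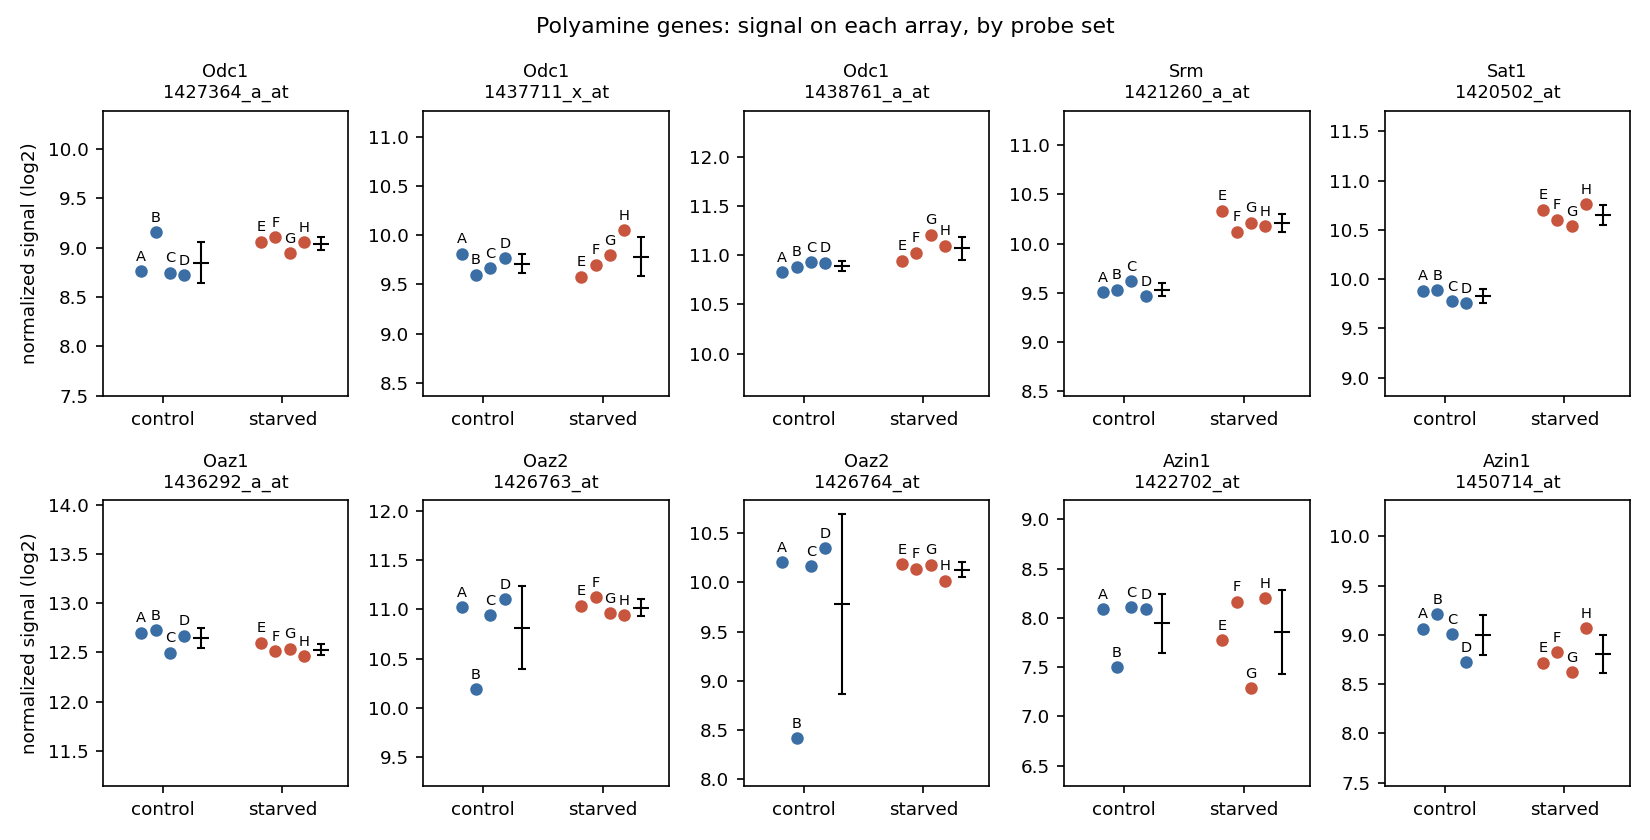
Normalized log2 signal of the 10 probe sets of Odc1, Srm, Sat1, Oaz1, Oaz2 and Azin1 on each array, control A to D in blue and starved E to H in red, with bars for the group mean and SD. Each panel spans the same number of log2 units around its own centre. Sat1 and Srm are separated by group, and control B lies far below the other arrays on both Oaz2 probe sets.

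The antizymes, the brakes on ornithine decarboxylase, did not pass. Oaz1 (1436292_a_at) read 12.70, 12.72, 12.49 and 12.67 across controls A, B, C and D. It read 12.60, 12.51, 12.54 and 12.46 across starved E, F, G and H. Control C lay within the starved range, and the difference of -0.12 ± 0.06 had a 95% interval from -0.26 to 0.02 (limma, adjusted p = 0.276). It was -0.003 with 75th percentile centring and -0.36 in unscaled values (adjusted p = 0.0900), or -0.029 after subtracting the median over probe sets. The brightest Oaz2 probe set (1426763_at) read 11.02, 10.19, 10.94 and 11.10 in controls A to D, against 11.04, 11.12, 10.96 and 10.94 across starved E, F, G and H. Control B was the lowest array by far, and the other 7 lay between 10.94 and 11.12. The Oaz2 difference was 0.20 ± 0.17 with all arrays (adjusted p = 0.529) and -0.006 ± 0.08 without control B, where the 95% interval ran from -0.18 to 0.17. The second Oaz2 probe set (1426764_at) showed the same array apart, at 8.42 against 10.17 to 10.34 in the other controls, with a difference of 0.35 ± 0.35 with it and -0.11 ± 0.09 without it. Control B is the array with the high 3' to 5' ratio, and the part of that ratio in these values was not tested.

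Azin1, the decoy that frees ornithine decarboxylase from antizyme, had 2 probe sets with overlapping groups. The brighter one (1450714_at) read 9.06, 9.21, 9.01 and 8.72 across controls A, B, C and D. It read 8.72, 8.82, 8.62 and 9.07 across starved E, F, G and H. Starved H lay among the controls and control D among the starved arrays. The difference was -0.19 ± 0.13, or 0.875-fold with a 95% interval from 0.713 to 1.07 (limma, adjusted p = 0.430). The other probe set stood at -0.09 ± 0.22 (adjusted p = 0.848). In unscaled values the brighter probe set was at -0.56 (95% interval -1.05 to -0.07, adjusted p = 0.119), or -0.23 after subtracting the median over probe sets. Without control B the brighter probe set was at -0.12 (limma, adjusted p = 0.649) and the other at -0.24 (adjusted p = 0.54).

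**Figure D2:**
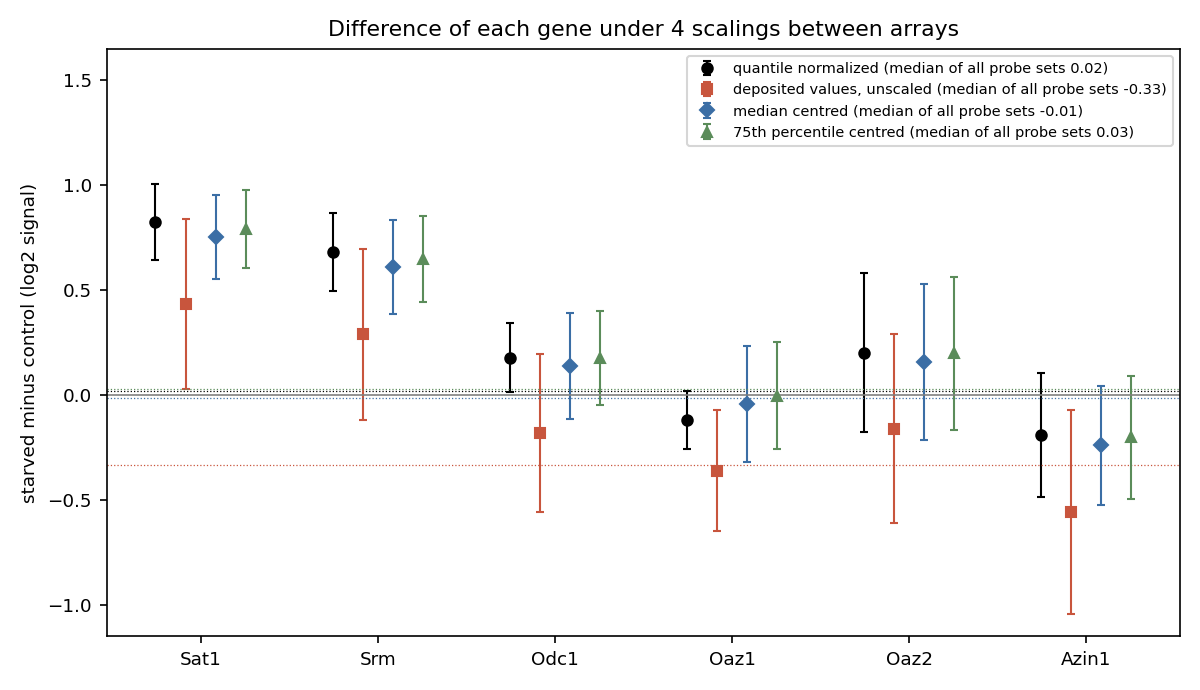
Difference between starved and control arrays (log2 signal) of the brightest probe set of each gene, with 95% confidence intervals from limma, under 4 scalings. Dotted lines mark the median of all tested probe sets in each scaling. In unscaled values that median moves to -0.33 and all 6 genes move down with it, while Sat1 and Srm stay the highest of the 6.

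The balance between members was also compared within arrays, where a brightness factor common to an array cancels but for the effect of the offset. For each pair the log2 ratio was computed on every array from unscaled values and the groups were compared by a two-sided exact permutation test over the 70 labellings, whose smallest p is 0.0286. The ratio of Odc1 to Sat1 lay below its control mean on every starved array, at -0.78, -0.61, -0.33 and -0.74 in E to H, while the controls stayed between -0.15 and 0.10. The mean difference was -0.62, so that the Odc1 to Sat1 ratio was 0.653 times that of controls, with no overlap (exact p = 0.0286). With 4 pairs compared the Benjamini-Hochberg adjusted p was 0.114, and 1 pair alone at the smallest p cannot get below that in this design. The ratio of Odc1 to Oaz1 differed by 0.18 (exact p = 0.171, adjusted 0.229). That of Odc1 to Azin1 differed by 0.38 (exact p = 0.114, adjusted 0.229), and that of Azin1 to Oaz1 by -0.20 (exact p = 0.371, adjusted 0.371). The groups overlapped in these 3 pairs. The ratio of Srm to Sms was planned but not computed, since Sms is given no value.

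**Figure D3:**
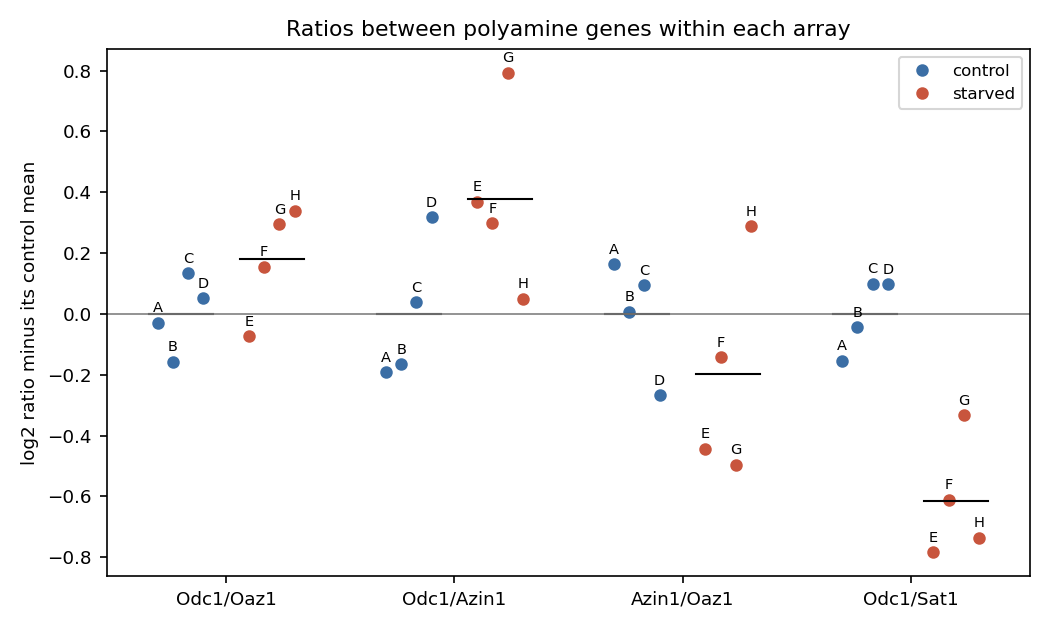
Log2 ratio of pairs of polyamine genes on each array, from unscaled signals with the offset added, minus the mean of the control arrays for that pair. Horizontal bars mark group means. Letters name the arrays. Only for Odc1 to Sat1 do the starved arrays lie wholly below the controls.

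Around these genes, 7 lists of the wider pathway named 62 genes, of which 46 had a probe set with 1 symbol and 35 were tested. One of the 35, Mycn, passed the brightness filter only through its starved arrays and so had to differ. It is left out of the counts of genes here. Of the other 34, 6 were higher and 2 lower, and 26 missed the threshold, with a median difference of 0.028. Among all tested genes 4.25% were higher and 6.93% lower, and their median difference was 0.014. At an unadjusted p under 0.05 in limma's test these shares were 11.1% and 13.2%. The counts of single lists below stand beside the same shares. The list around the aminopropyl donor had 0 of 2 tested genes passing, and 0 at an unadjusted p under 0.05 in limma's test. Its genes Amd1, Amd2 and Mat2a had no probe set with 1 symbol, and Mat1a was not tested. Supply of the donor is therefore left largely unmeasured. Mat2b, a subunit of methionine adenosyltransferase, was at 0.08 ± 0.13 and Ahcy, which clears S-adenosylhomocysteine, at -0.06 ± 0.09. Methylthioadenosine salvage, which recycles the by-product of both synthases, had 0 of 4 passing and 0 at an unadjusted p under 0.05. Adi1 was at -0.15 ± 0.16 and Mri1 at -0.02 ± 0.13.

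Of 5 tested genes of ornithine supply and competing routes 1 rose and 1 fell. Aldh18a1, which turns glutamate into the precursor of proline and ornithine, rose from 8.76 to 9.00 in controls to 9.58 to 10.19 in starved arrays, a difference of 1.07 ± 0.13 or 2.10-fold (limma, adjusted p = 0.000358). Of its 5 tested probe sets 3 passed, and they ranged from -0.14 to 1.07. In unscaled values the Aldh18a1 call was lost (0.68, adjusted p = 0.0526). Argininosuccinate lyase (Asl), which makes arginine, was lower by a log2 difference of -0.63 ± 0.16 (limma, adjusted p = 0.0299). Asl was 8.63 to 9.11 in controls and 7.92 to 8.56 in starved arrays, separate by a narrow margin. Its call was lost when any 1 of controls A, B and C or starved F, G and H was left out (adjusted p from 0.0578 to 0.0878). Ornithine aminotransferase (Oat) was at 0.03 ± 0.09 and Agmat at -0.05 ± 0.17.

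Among 3 tested genes of polyamine oxidation 0 passed, and 1 was lower at an unadjusted p under 0.05, against 13.2% of all tested genes. That gene was spermine oxidase (Smox), which turns spermine back into spermidine. It was 8.51 to 8.82 in controls and 8.13 to 8.46 in starved arrays, a difference of -0.38 ± 0.12 (limma, adjusted p = 0.0720). With unscaled values Smox was called lower (-0.74, adjusted p = 0.0381), as it was with median centring (-0.42, adjusted p = 0.0404). The diamine oxidase gene Aoc1 was at 0.14 ± 0.16.

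Hypusination, the step in which spermidine is used to modify the translation factor eIF5A, had 1 of 3 tested genes higher. Dohh, the hydroxylase that completes hypusine, rose by 0.37 ± 0.10 (limma, adjusted p = 0.0325), with 9.20 to 9.53 in controls and 9.65 to 9.85 in starved arrays. The Dohh call was lost in each other scaling, without an intensity trend and when controls A, B or D or starved E, F or G was left out, and the difference was -0.018 in unscaled values. Dhps, which performs the first step, was at 0.20 ± 0.10 and Eif5a itself at 0.03 ± 0.09. The probe sets of each differed: the other Dhps probe set passed at 0.32, and the other Eif5a probe set stood at 0.64 without passing. Averaging the probe sets gave 0.26 for Dhps (adjusted p = 0.0596) and 0.34 for Eif5a (adjusted p = 0.326).

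Transport genes had 1 of 6 tested members higher and 1 lower. Slc3a2, the heavy chain of amino acid transporters that has also been linked to polyamine export, rose by 1.86 ± 0.09 or 3.63-fold (limma, adjusted p = 5.51e-07). Atp13a3, an ATPase that moves polyamines into cells, fell from 10.74 to 11.01 in controls to 9.97 to 10.33 in starved arrays, a difference of -0.70 ± 0.10 (adjusted p = 0.000866). The second Atp13a3 probe set stood at 0.009, while averaging both gave -0.35 (limma, adjusted p = 0.0307). Gpc1 and Cav1, both linked to polyamine uptake, were at -0.25 ± 0.14 and -0.25 ± 0.14 and did not pass. Without control B, Gpc1 was lower at -0.43 (adjusted p = 0.00133).

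**Figure D4:**
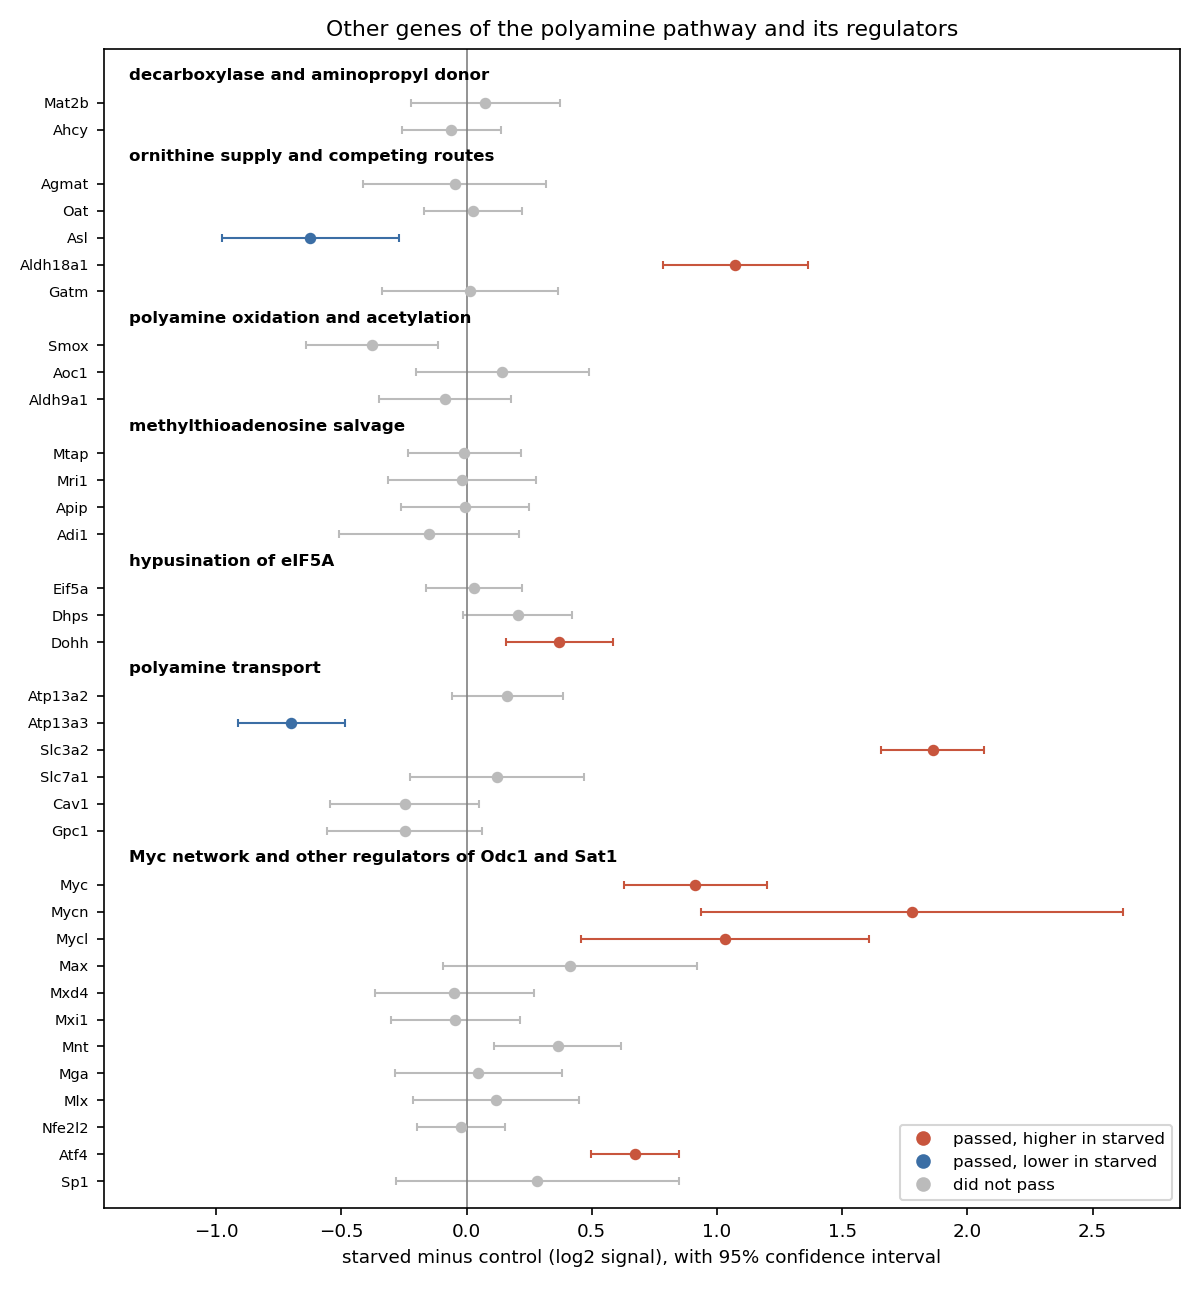
Difference between starved and control arrays (log2 signal) with 95% confidence intervals from limma for the 35 tested genes of the wider pathway, grouped by list. Red and blue mark genes that passed an adjusted p of 0.05 as higher or lower. The genes that passed as higher include Slc3a2, Aldh18a1 and Myc. Mycn is also drawn in red, but entered the test only through its starved arrays.

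The list of regulators held the Myc network, whose members are known to act on Odc1 and Srm transcription. It also held Atf4, Nfe2l2, Sp1 and Trp53, which are not of that network. Trp53 had no probe set with 1 symbol. Among the 11 genes other than Mycn, 3 were higher (Myc, Mycl and Atf4) and 0 lower, with a median difference of 0.28. Over all tested genes 4.25% were higher. Myc rose by 0.91 ± 0.13 or 1.88-fold (adjusted p = 0.000948; 0.124 in unscaled values). It was 7.52 to 7.91 in controls and 8.46 to 8.75 in starved arrays. Mycn was dim in controls, 5.80 to 5.99, below the brightness filter of 6.61, and passed that filter through its starved arrays, which ran from 6.30 to 8.35. Starved H was the lowest of its group. The Mycn levels are a description, with no test, and the gene was too dim to be tested without starved F or starved G. Mycl was at 1.03 ± 0.26 (adjusted p = 0.0278), with 1 of its 3 tested probe sets passing, and its call was lost in unscaled values, without a filter and without starved E, F or G. Its control A read 5.98, below the brightness filter, against 7.07 to 7.35 in the other controls. Without control A the Mycl difference was 0.74. Atf4 rose by 0.67 ± 0.08 (adjusted p = 0.000289; 0.178 in unscaled values). Mnt, a repressor in the network, was at 0.36 ± 0.12 with groups that did not overlap and Max, the partner of Myc, at 0.41 ± 0.23, and neither passed. Mnt passed with array weights (0.41, adjusted p = 0.0293), when the fit used 1 averaged value per gene (0.36, adjusted p = 0.0488) and without starved H (0.45, adjusted p = 0.0284), and it was at 0.007 in unscaled values. Max was at 0.19 without control A and at 0.08 in unscaled values. Several of these genes had been seen to change in these arrays before, so they are a description and no independent support.

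Odc1 and Srm are genes of growing cells, so markers of cells still cycling were read beside them. Of 5 markers of undifferentiated or cycling myoblasts on the array 4 were tested, 0 rose and 1, Cdk1, fell. For this and the other marker counts, 6.93% of all tested genes were lower. Their summed normalized signal was 807 to 938 intensity units in controls and 533 to 710 in starved arrays. Of 4 fibroblast markers 3 were tested and Col1a1 fell, and the sum was 1660 to 1930 in controls and 949 to 1110 in starved arrays. Of 4 macrophage markers 3 were tested and 0 passed, and of the adipocyte markers 3 were on the array, all too dim to be tested. All cultures are of the same cell line, so the fibroblast, macrophage and adipocyte markers are read as genes, not as counts of such cells. For cycling myoblasts, fewer cells and less RNA per cell cannot be told apart. The part of such myoblasts in the polyamine results was not tested.

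Across all tested genes, the profile of Sat1 over the 8 arrays was compared by the root mean square difference of mean-centred log2 signals. The nearest genes were Oxnad1 (0.070), Derl1 (0.093), Gabrr2 (0.105), Eif4ebp1 (0.108) and Vcam1 (0.109). The 5 were picked on these same 8 arrays for lying near Sat1, so they had to be higher in starved arrays too. Their differences, from 0.78 for Oxnad1 to 0.94 for Vcam1, are a description and no support. Srm was the 8th nearest gene to Sat1 at a distance of 0.118, and Odc1 lay farther off at 0.350. These distances largely restate the group differences given above. No member passed as lower, so no such list was made for a falling gene.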

How the data were processed

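RNA of control and starved C2C12 myotubes was hybridised to Affymetrix mouse arrays, with 4 arrays per group. The deposited table holds 1 linear intensity per probe set and array for 22690 probe sets. For the software behind these intensities the sources used here give no name. All 8 columns were used. Because trimmed means (2% off each end) differed by more than 5% from their median, values were offset by 10.9 (their 10th percentile), log2 transformed and quantile normalized. After leaving out 64 control probe sets, the 13575 probe sets with a mean log2 above the 40th percentile (6.61) were tested with limma 3.58.1 in R 4.3.3 (eBayes with an intensity trend). The offset makes fold changes of dim genes too small, and precision is limited by having 4 arrays per group.

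Gene symbols came from the platform annotation and were updated by gene number to the RefSeq table of GRCm38.p6, where 20351 of 20380 probe sets with 1 symbol matched. A gene is represented by its brightest tested probe set. Named genes are all members, every called gene of the 7 lists and up to 2 others per list with the largest difference, and the 5 genes nearest in profile to the most changed member. The exceptions named after their values were seen are the markers that passed. Arrays carry letters that the groups do not share and were not matched to each other. Members and lists were chosen with earlier results of these data known. The fit and the permutation test were tested on simulated data. Alternatives were other scalings, offsets, filters and eBayes settings, array weights, averaging over all probe sets of 1 gene, and leaving out each array. Promoter sequences are from RefSeq. Figures used matplotlib 3.10.9 in Python 3.11.15.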

Additional observations from a re-analysis of the deposited data

Results flagged for a closer look

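In 3 of 28 groups checked (4 arrays each, over the probe sets of the members and the ratios between them) 1 array lay far from the other 3 by Dixon's 95% criterion, which chance meets in about 1 group in 20. All 3 were control B. The groups share arrays, and the ratios reuse the probe sets, so the groups checked are not independent of each other. On the Odc1 probe set 1427364_a_at control B read 9.16 against 8.72 to 8.76 in the other controls. On the Oaz2 probe set 1426764_at it read 8.42 against 10.17 to 10.34. On the Azin1 probe set 1422702_at it read 7.50 against 8.09 to 8.11. Control B thus lay above the other controls on the Odc1 probe set and below them on those of Oaz2 and Azin1. It is the array whose Gapdh log2 ratio of 3' to 5' signal was 1.40, while its Actb ratio of 0.32 lay near the others, which ran from 0.02 to 0.29. Whether this ratio has a part in the 3 values was not tested. None of the 3 probe sets represents its gene, and Sat1 and Srm passed as higher with and without control B.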

How the results depend on the processing

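Sat1 and Srm were called higher in 18 of 19 alternatives each, with differences from 0.75 to 0.86 and from 0.61 to 0.71 in those. In unscaled values neither was called (0.43 and 0.29), so that 0 members were higher in place of 2, and the other pathway genes gave 2 higher and 3 lower in place of 7 and 2, Mycn counted. There the median of all tested probe sets was -0.33 against 0.018. No member was called lower in any alternative. Signs turned, without a call, in unscaled values for Odc1 (-0.18), Oaz2 (-0.16), Mat2b (-0.29), Oat (-0.35), Aoc1 (-0.18), Eif5a (-0.20), Dhps (-0.20) and Dohh (-0.018), with array weights for Mat2b (-0.009) and Eif5a (-0.028), with median centring for Oat (-0.031) and with 75th percentile centring for Agmat (0.002). When each array was left out in turn, Oaz2 ran from -0.006 to 0.298, Mat2b from -0.032 to 0.131, Agmat from -0.154 to 0.057, Oat from -0.008 to 0.054, Mri1 from -0.093 to 0.055, Adi1 from -0.223 to 0.024 and Eif5a from -0.067 to 0.083. The other pathway genes then gave 4 to 8 higher, with 4 without starved F or starved G, and 1 to 2 lower, with 1 without control A, control C or starved F, G or H. The cause was not tested. The ratios between members kept their sign in all 12 alternatives. No paired analysis was possible because arrays A to D and E to H share no replicate label. Since detection calls were not used, dim values are not judged against background.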
